A study of Mus musculus with 20 samples.

Results

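Transcript levels of 6 genes of the HoxC cluster, Hoxc4, Hoxc5, Hoxc6, Hoxc8, Hoxc9 and Hoxc10, were compared across 5 groups of structures that had formed from aggregates of mouse embryonic stem cells. The genes were taken by symbol and are 6 of the 54446 genes in the deposited tables. Each group had 3 libraries of bulk RNA sequencing, described as biological replicates in the labels. All structures came from the F1G4 line, a double reporter of genotype T::H2B-mCherry/Sox2::H2B-Venus that marks cells with activity of Brachyury (T) or Sox2. All aggregates received a pulse of 3 µM CHIR99021, an activator of WNT signalling, at 48 h.

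The group 96h held precursors collected at 96 h, 10 structures pooled per library. The other 4 groups were collected at 120 h, 6 structures pooled per library. Gastruloid was grown without Matrigel. TLSMG, the trunk-like structures, was kept in Matrigel, a gel made of basement membrane material. TLSMGC received Matrigel and CHIR99021, and TLSMGCL received both of these and LDN, which inhibits receptors for BMP. Structures were picked for an asymmetric pole before pooling, and the cell line had been grown on feeder cells that were removed before aggregation. A pooled library cannot tell fewer cells that express a gene from less RNA per cell.

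Hox genes encode homeodomain transcription factors that give cells of the trunk their position along the head-to-tail axis. They lie in clusters, and their order along the DNA follows the order in which they are switched on and the order of their expression borders in the embryo, a property called collinearity. Hoxc4, at the 3′ end of the group, is used from the neck level, Hoxc6, Hoxc8 and Hoxc9 in the thoracic region, and Hoxc10 near the lumbar level. Gastruloids are known to switch on their Hox clusters in this order.

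All 6 genes lie on the plus strand of chromosome 15 of the mouse genome build mm10 (GRCm38). From the 3′ end of the cluster, the tables place Hoxc4 at 103018934 to 103036852, Hoxc5 at 102967443 to 103017429 and Hoxc6 at 102998257 to 103011881. Hoxc8 followed at 102990607 to 102994111, Hoxc9 at 102976439 to 102985099 and Hoxc10 at 102966796 to 102971893. The span of Hoxc5 runs over the other genes between because 1 of its transcripts starts far upstream. In the GENCODE M21 annotation Hoxc5 and Hoxc10 share 166 exon bases. Reads of Hoxc5, with 3089 exon bases, could thus in part be those of Hoxc10, and reads of Hoxc10, with 1909, those of Hoxc5. The other 4 genes share no exon base with another member.

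The homeobox, the stretch that encodes the DNA-binding homeodomain, is the part of these genes most alike in sequence. The last 60 of its 180 bases, which encode the helix that reads the DNA, are given below for 5 of the genes, in the order of the cluster, because they show both the kinship of the members and what separates them. Capitals mark the bases that are the same in all 6 genes.
Hoxc4: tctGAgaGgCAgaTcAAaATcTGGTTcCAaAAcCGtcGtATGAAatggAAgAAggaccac
Hoxc6: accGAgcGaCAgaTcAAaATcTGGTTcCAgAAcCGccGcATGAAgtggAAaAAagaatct
Hoxc8: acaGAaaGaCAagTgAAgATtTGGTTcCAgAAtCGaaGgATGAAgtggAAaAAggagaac
Hoxc9: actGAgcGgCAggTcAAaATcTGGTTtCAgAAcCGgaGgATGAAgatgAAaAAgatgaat
Hoxc10: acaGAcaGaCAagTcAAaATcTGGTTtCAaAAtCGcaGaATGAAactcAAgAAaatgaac
In these 60 bases 31 were the same in every member, and over the whole homeobox 71 of 180. Identity between members ranged from 58.3% to 77.8%, with the highest value between Hoxc5 and Hoxc6. The longest run shared by the coding sequences of any pair was 20 bases, against a stated read length of 75 bases.

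Levels are given as TPM, an abundance corrected for transcript length and scaled to the same total in every library. Hoxc4 was the highest member in the precursors and stood at 9.31, 13.3 and 15.2 TPM in the 3 libraries of 96h. It reached 27.4, 32.3 and 33.1 TPM in Gastruloid and 26.1, 32.9 and 33.7 TPM in TLSMG. With CHIR99021 it stood at 18.6, 22.0 and 26.3 TPM in TLSMGC, and at 19.9, 18.3 and 17.4 TPM in TLSMGCL. Every library at 120 h was above every library at 96h, and TLSMGC overlapped with TLSMG at its upper end.

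Hoxc5, the neighbour of Hoxc4 and another factor of the neck and upper trunk level, had low levels throughout. It was at 1.90, 1.84 and 2.54 TPM in 96h, 5.39, 4.56 and 4.97 TPM in Gastruloid and 7.05, 5.34 and 5.61 TPM in TLSMG. The levels were 3.50, 3.21 and 4.48 TPM in TLSMGC and 3.01, 3.05 and 2.34 TPM in TLSMGCL. TLSMGCL overlapped with 96h, and no other group at 120 h did.

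Hoxc6, a gene of the upper thoracic level, had low levels in the precursors, at 1.26, 3.04 and 3.08 TPM. It was at 39.0, 44.4 and 40.6 TPM in Gastruloid and at 44.0, 52.2 and 45.7 TPM in TLSMG. Both CHIR99021 groups lay between, at 15.1, 18.8 and 21.2 TPM in TLSMGC and 14.5, 15.9 and 13.1 TPM in TLSMGCL. The 96h, the CHIR99021-treated and the untreated libraries of 120 h formed 3 ranges without overlap.

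Hoxc8, which patterns the thoracic ribs and motor neurons of the brachial spinal cord, had the highest TPM of the members in all 4 groups at 120 h. Its values were 4.34, 7.58 and 9.72 TPM in 96h, 45.7, 62.7 and 60.2 TPM in Gastruloid and 59.5, 73.8 and 65.3 TPM in TLSMG. They were 23.1, 23.5 and 27.1 TPM in TLSMGC and 21.5, 19.0 and 20.9 TPM in TLSMGCL. As for Hoxc6, the same 3 ranges did not overlap.

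Hoxc9, a gene of the lower thoracic level that sets thoracic motor neuron identity, was the lowest of the members detected in the precursors, at 0.664, 0.919 and 0.720 TPM. It stood at 30.3, 34.7 and 26.8 TPM in Gastruloid and at 24.9, 31.8 and 25.0 TPM in TLSMG. TLSMGC had 5.86, 10.5 and 11.0 TPM and TLSMGCL 9.35, 9.61 and 6.30 TPM. All libraries at 120 h were above those of 96h, and both CHIR99021 groups were below Gastruloid and TLSMG.

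Hoxc10, the most 5′ member with a signal, was listed at 0 in all 3 libraries of 96h. It was at 0.274, 0.412 and 0.844 TPM in Gastruloid, and at 2.99, 1.93 and 2.13 TPM in TLSMG. The levels were 0.754, 0.504 and 0.811 TPM in TLSMGC and 0.309, 0.491 and 0.655 TPM in TLSMGCL. TLSMG was above every other library, and the other groups of 120 h overlapped with each other.

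**Figure D1:**
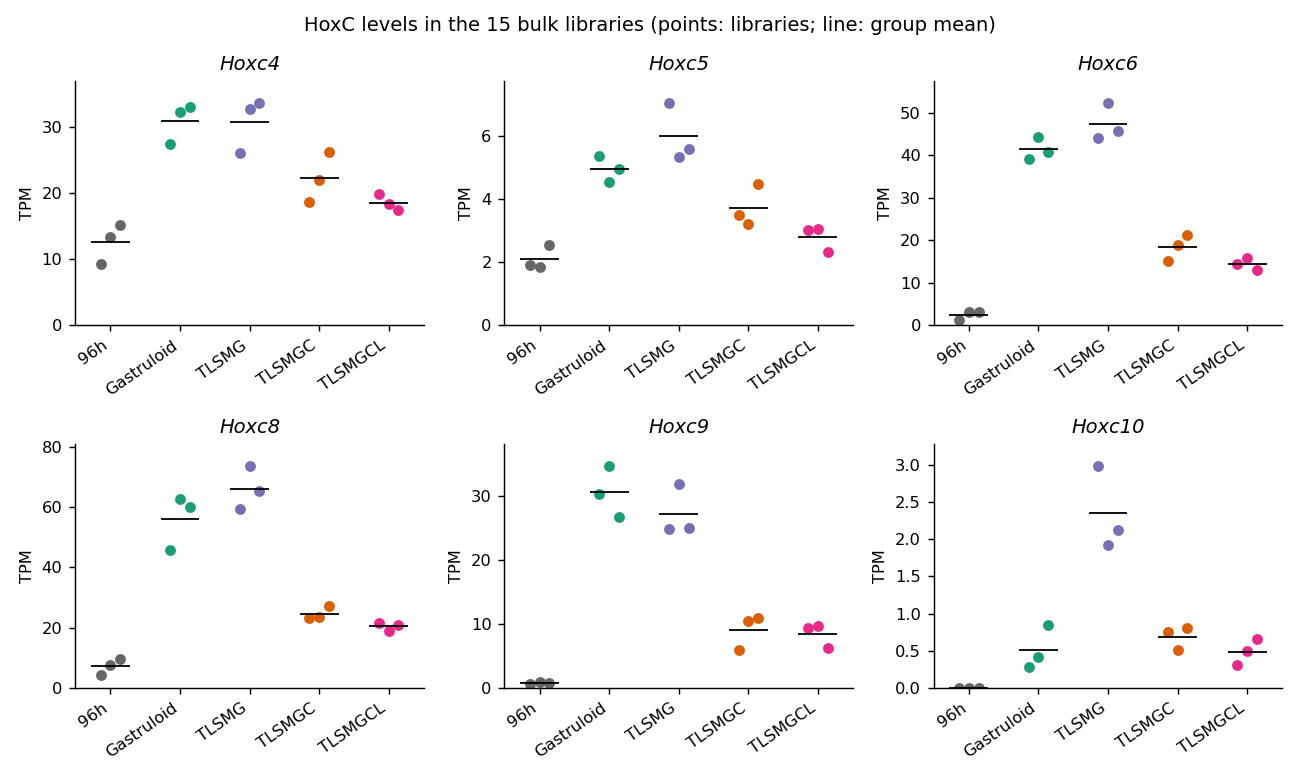
TPM of the 6 HoxC genes (one panel each, linear axes from 0) in the 5 groups; points are libraries and lines are group means. Hoxc4 starts from the highest level in 96h, Hoxc10 is at 0 there, and the 2 groups with CHIR99021 lie below Gastruloid and TLSMG for Hoxc6, Hoxc8 and Hoxc9.

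In the precursors the order of the mean levels was Hoxc4 (12.6 TPM), Hoxc8 (7.22 TPM), Hoxc6 (2.46 TPM), Hoxc5 (2.09 TPM), Hoxc9 (0.767 TPM) and Hoxc10 (listed at 0). The ranges of Hoxc4 and Hoxc8 overlapped, as did those of Hoxc6 and Hoxc5. Within single libraries Hoxc4 was above Hoxc8 in all 3, and Hoxc6 was above Hoxc5 in 2. In Gastruloid and TLSMG the order was Hoxc8, Hoxc6, Hoxc4, Hoxc9, Hoxc5 and Hoxc10, and Hoxc4 and Hoxc9 overlapped. Hoxc4 was above Hoxc9 in 1 library of Gastruloid and in all 3 of TLSMG. In TLSMGC and TLSMGCL Hoxc4 moved up to the second place. Its range overlapped with that of Hoxc8, although Hoxc8 had the higher TPM in all 3 libraries of each group. This order rests on the TPM: the deposited coverage, put on the scale of TPM, gave Hoxc6 a level of 5.85 in TLSMG where its TPM was 47.3, and placed it below Hoxc4 (24.2) and Hoxc9 (10.1) there. On that measure the mean of Hoxc4 stood above that of Hoxc8 in both CHIR99021 groups, with overlap. The means were 17.5 against 16.5 in TLSMGC and 14.6 against 13.7 in TLSMGCL, with Hoxc4 higher in 2 libraries of each group. The coverage-based level of Hoxc8 was highest in Gastruloid and TLSMG as well, at 37.6 and 44.5.

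The change in levels within the cluster can be read from the share of each member in the summed TPM of the 6 genes. The sum was 25.1 ± 7.0 TPM (SD, n = 3) in 96h, 164.5 ± 15.5 in Gastruloid, 179.9 ± 16.9 in TLSMG, 78.8 ± 12.0 in TLSMGC and 65.2 ± 4.09 in TLSMGCL. Hoxc4 and Hoxc5 together made up 59.2% ± 4.30 of it in 96h and 21.9% ± 1.15 in Gastruloid. Their share was 20.5% ± 1.45 in TLSMG, 33.0% ± 0.888 in TLSMGC and 32.8% ± 0.646 in TLSMGCL, all n = 3. No library of either CHIR99021 group overlapped in this share with Gastruloid, TLSMG or 96h. The 3 members at the 5′ side, Hoxc8, Hoxc9 and Hoxc10, had 31.3% ± 2.45 in 96h, 53.0% ± 1.57 in Gastruloid and 53.2% ± 1.11 in TLSMG. They had 43.7% ± 0.798 in TLSMGC and 45.0% ± 1.05 in TLSMGCL. As parts of the same sum, these shares are not independent of those of Hoxc4 and Hoxc5. The ratio of Hoxc9 to Hoxc4 in TPM was 0.0626 ± 0.0132 in 96h, 0.995 ± 0.162 in Gastruloid, 0.889 ± 0.126 in TLSMG, 0.403 ± 0.0826 in TLSMGC and 0.452 ± 0.0829 in TLSMGCL. On the coverage-based level this ratio was lower by more than 2-fold in every group, at 0.0287 ± 0.00798 in 96h, 0.466 ± 0.0783 in Gastruloid, 0.419 ± 0.0601 in TLSMG, 0.153 ± 0.0426 in TLSMGC and 0.159 ± 0.0431 in TLSMGCL, with the same groups high and low. The share of Hoxc4 and Hoxc5 on that level was 68.5% in 96h, 34.2% in Gastruloid, 31.2% in TLSMG, 47.7% in TLSMGC and 47.8% in TLSMGCL, again without overlap between the CHIR99021 groups and the others. The ratio of the neighbours Hoxc5 and Hoxc4 in TPM stayed between 0.151 and 0.200 in all 5 group means. These shares are descriptions and were not tested.

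**Figure D2:**
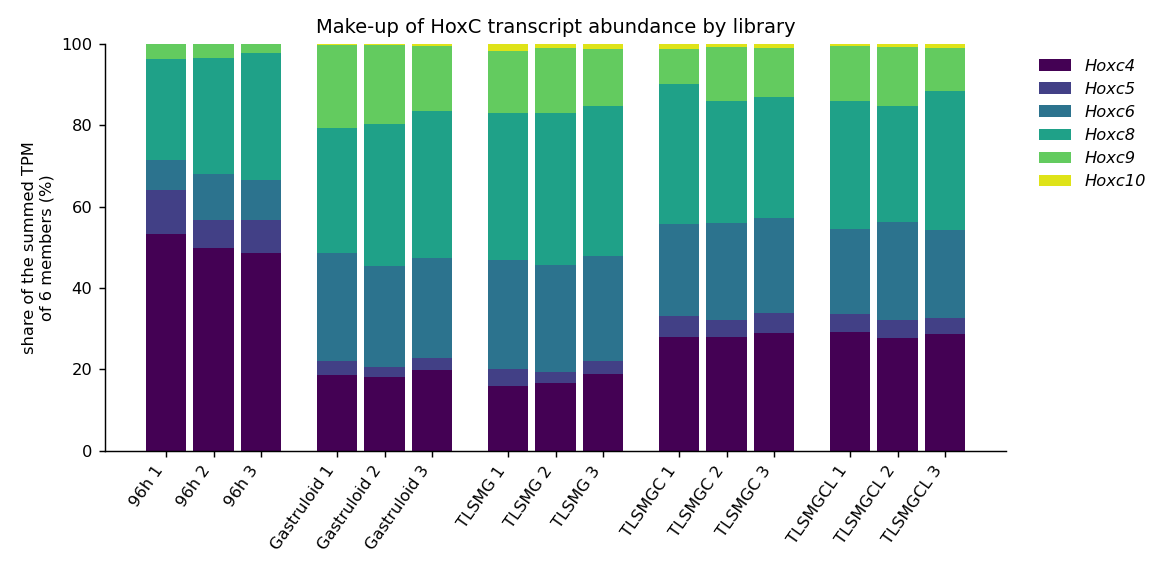
Share of each member (colours, in cluster order from Hoxc4 at the bottom) in the summed TPM of the 6 HoxC genes, in percent, 1 bar per library. Hoxc4 and Hoxc5 take 56.7% to 64.2% in the 96h libraries, 19.3% to 22.9% in Gastruloid and TLSMG, and 32.1% to 33.8% in TLSMGC and TLSMGCL.

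The comparisons ask which HoxC genes changed from 96 h to 120 h, and which differed between the 120 h groups in Matrigel, CHIR99021 or LDN. The tests were run with limma on log2(TPM + 1) over the 14290 genes whose mean reached 1 TPM, with an adjusted p (Benjamini-Hochberg) under 0.05 counted as a call. Hoxc10, with a mean of 0.807 TPM, did not pass this filter, so 5 of the 6 members were tested. Hoxc10 had been low in most groups, and its values come from a fit of all 54446 genes. Depth, as coverage per unit of FPKM, ranged from 3.12 to 6.84 over the 15 libraries, and 13688 to 14494 genes per library reached 1 TPM. The labels call the cell type mESC. Presomitic and tailbud markers (T, Tbx6, Msgn1 and 5 others) summed to 1546 to 1947 TPM in 96h and 118 to 459 TPM at 120 h. Somite markers (Meox1, Pax1 and 7 others) summed to 679 to 1219 TPM over all libraries, and pluripotency markers (Pou5f1, Nanog and 6 others) to 39.2 to 408 TPM.

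From 96h to Gastruloid all 5 tested members rose, where 20.8% of all genes tested were called higher. Of the genes called in either direction 50.4% were higher, and 62.4% with FPKM in place of TPM. The median log2 difference of the members was 2.84, against 0.00 over all genes tested. Hoxc9 rose most, by a log2 difference of 4.15 (SE 0.20, adjusted p = 2.8e-09), with group means 39.9-fold apart in TPM. Its mean in 96h was 0.767 TPM, so it passed the filter of 1 TPM through the groups of 120 h, and its ratio has a low denominator. The size of the Hoxc9 difference depended on the scale, at 3.26 on the coverage-based level and 5.15 on log2(TPM + 0.1). Hoxc6 followed with 3.66 (SE 0.19, adjusted p = 5.0e-09) and a ratio of means of 16.8. Hoxc8 rose by 2.84 (SE 0.20, adjusted p = 9.8e-08), or 7.79-fold. The 2 members at the 3′ end rose least, Hoxc4 by 1.25 (SE 0.16) and Hoxc5 by 0.95 (SE 0.14), or 2.46-fold and 2.38-fold. On the coverage-based level the log2 difference of Hoxc6 was 2.25, while the ratio of means was 16.8 on both measures. The 95% intervals of Hoxc4 (0.91 to 1.60) and Hoxc5 (0.66 to 1.25) lay below those of Hoxc6 (3.25 to 4.07), Hoxc8 (2.42 to 3.27) and Hoxc9 (3.72 to 4.59). Hoxc10, at 0 in 96h, had a mean of 0.510 TPM in Gastruloid, a log2 difference of 0.58 in the fit of all genes (adjusted p = 0.036).

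The other groups of 120 h were set against the same 96h libraries, so these comparisons are not independent of the first. In TLSMG all 5 members rose as well (33.5% of all genes higher), with a median of 3.08 against 0.14 over all genes. The differences ran from 1.18 for Hoxc5 to 3.99 for Hoxc9, with 3.85 for Hoxc6. Of the genes called against 96h in TLSMG, 72.9% were higher, and 49.2% after scaling the libraries by median of ratios. In TLSMGC all 5 rose (20.6% of all genes higher), by a median of 1.69 against 0.02, with Hoxc6 at 2.53 and Hoxc9 at 2.48 (SE 0.19 and 0.20). On the coverage-based level these were 1.29 and 1.51, still called. Hoxc4 was 1.77-fold above 96h in TLSMGC and Hoxc5 1.78-fold. In TLSMGCL 4 of 5 rose (17.4% of all genes higher), by a median of 1.44 against -0.02. Hoxc5 was not called there, with a log2 difference of 0.30 (SE 0.14, adjusted p = 0.10). Hoxc4 in TLSMGCL was called at 0.55 (SE 0.16, adjusted p = 0.015), a call that was lost without the first 96h library (0.36, adjusted p = 0.074) or the first TLSMGCL library (0.50, adjusted p = 0.053).

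Between TLSMG and Gastruloid, which differ in Matrigel, none of the 5 tested members was called by limma, and none had an unadjusted p under 0.05, where 39.3% of all genes tested were called. Log2 differences were -0.01 for Hoxc4, 0.22 for Hoxc5, 0.19 for Hoxc6, 0.24 for Hoxc8 and -0.16 for Hoxc9, against a median of 0.13 over all genes. Their 95% intervals reached from -0.60 at the lowest (Hoxc9) to 0.67 at the highest (Hoxc8), so the data do not show that the levels were alike. Of all genes called, 80.0% were higher in TLSMG, and 51.6% after median-of-ratios scaling. Hoxc10 stood apart: its mean was 2.35 ± 0.563 TPM in TLSMG and 0.510 ± 0.297 TPM in Gastruloid (SD, n = 3), 4.60-fold higher. In the fit of all genes its log2 difference was 1.15 (SE 0.15, adjusted p = 0.0017), and each TLSMG library was above each Gastruloid library.

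**Figure D3:**
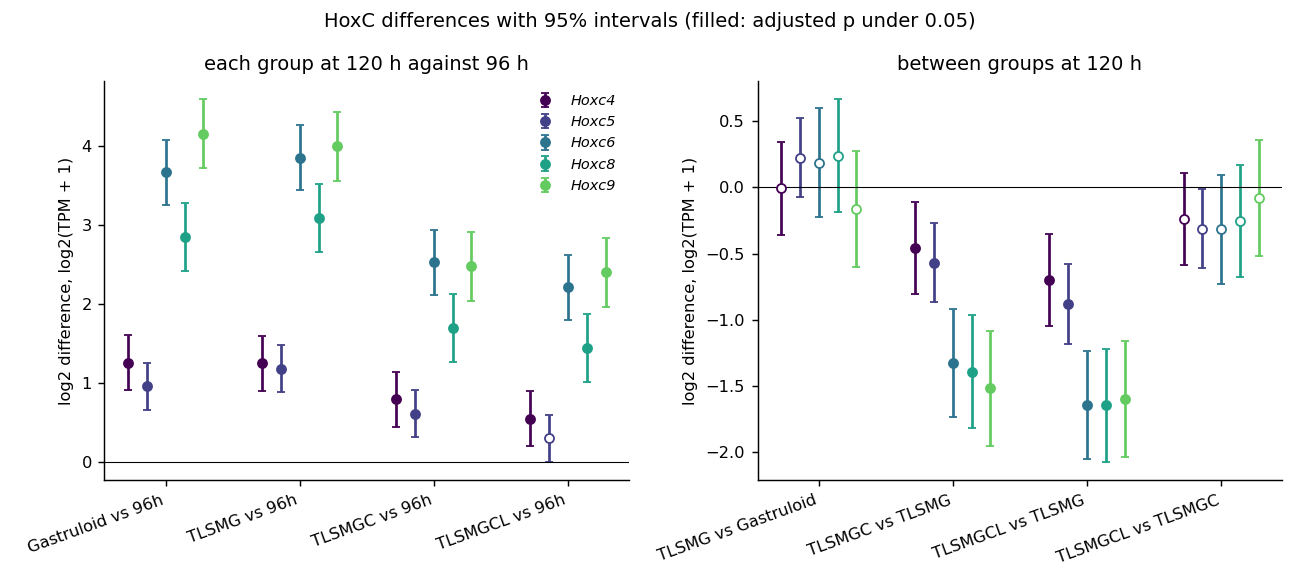
Log2 differences of the 5 tested HoxC genes on the log2(TPM + 1) scale, with 95% intervals; left, each group of 120 h minus 96h, and right, comparisons between groups of 120 h. Filled points have an adjusted p under 0.05. The rise is smallest for Hoxc4 and Hoxc5 and largest for Hoxc6 and Hoxc9. Hoxc8 lies between them and below Hoxc6 in each group, so on this scale the rise does not follow the cluster order step by step. The place of Hoxc6 depends on the measure. On the coverage-based level the differences of Gastruloid from 96h were 2.25 for Hoxc6, 2.77 for Hoxc8 and 3.26 for Hoxc9. The ratio of means was larger for Hoxc6 than for Hoxc8 on both measures. All 5 genes are lower in TLSMGC and TLSMGCL than in TLSMG.

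With CHIR99021 added to Matrigel, all 5 tested members were lower in TLSMGC than in TLSMG, where 30.5% of all genes tested were called lower. Their median log2 difference was -1.33, against -0.16 over all genes. Hoxc9 fell by 1.52 on the log2 scale (SE 0.20, adjusted p = 6.1e-05), from a mean of 27.2 to 9.11 TPM. Hoxc8 fell by 1.39 (SE 0.20, adjusted p = 0.00010), from 66.2 to 24.6 TPM, and Hoxc6 by 1.33 (SE 0.19, adjusted p = 0.00011), from 47.3 to 18.4 TPM. Hoxc5 fell by 0.57 (SE 0.14, adjusted p = 0.0054), and its TPM ranges did not overlap. Hoxc4 fell by 0.46 (SE 0.16, adjusted p = 0.037), with overlapping ranges, a call that was lost after median-of-ratios scaling (-0.30, adjusted p = 0.16) and with FPKM (-0.33, adjusted p = 0.11). Without the third TLSMG library the adjusted p of Hoxc4 was 0.12, without the second 0.11, and without the first or second TLSMGC library 0.14 and 0.076. Hoxc10 fell from 2.35 to 0.689 TPM, by 0.98 in the fit of all genes (adjusted p = 0.0018). Of all genes called in this comparison, 25.5% were higher in TLSMGC, and 49.4% after median-of-ratios scaling.

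TLSMGCL, with LDN as well, was set against the same TLSMG libraries. All 5 members were lower (35.6% of all genes lower), with a median of -1.60 against -0.18. Hoxc6 and Hoxc8 each fell by 1.64 and Hoxc9 by 1.60, to means of 14.5, 20.4 and 8.42 TPM. Hoxc4 fell by 0.70 (SE 0.16, adjusted p = 0.0035) and Hoxc5 by 0.88 (SE 0.14, adjusted p = 0.00022). In this comparison 20.7% of the genes called were higher, and 48.8% after scaling. Hoxc10 was 4.85-fold lower than in TLSMG, at 0.485 ± 0.173 TPM.

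The direct comparison of TLSMGCL with TLSMGC, which differ in LDN, called none of the 5 members in limma, where 1.18% of all genes tested were called (34.3% of them higher, and 51.0% after median-of-ratios scaling). All 5 differences were below 0, from -0.32 for Hoxc6 to -0.08 for Hoxc9, against a median of -0.04 over all genes. Hoxc5 had an unadjusted p under 0.05 (0.042, adjusted p = 0.36). The TPM ranges of Hoxc5 and Hoxc8 did not overlap between these groups, and those of the other 3 did. The 95% intervals reached down to -0.73 for Hoxc6. Across the 4 groups of 120 h a moderated F test of limma called all 5 members, where 62.7% of all genes tested were called.

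Between the groups of 120 h several marker lists differed, some in the direction of the HoxC levels and some against it. In 96h, with the lowest HoxC sum, gut endoderm markers summed to 96.2 to 127.5 TPM and pluripotency markers to 174 to 307 TPM. Somite markers summed to 923 to 1214 TPM in 96h and 1034 to 1219 TPM in Gastruloid. Neural tube markers were at 59.2 to 70.0 TPM in 96h. Neural tube markers summed to 376 to 523 TPM in Gastruloid, 205 to 306 TPM in TLSMG, 53.5 to 65.9 TPM in TLSMGC and 68.2 to 78.4 TPM in TLSMGCL. Thus the groups with low HoxC levels at 120 h also had low neural tube markers. In TLSMGC against TLSMG, 7 of the 8 tested neural genes were lower, and 6 after median-of-ratios scaling. Over all genes tested 30.5% were called lower in that comparison and 10.4% higher, a share to set beside each count here. After median-of-ratios scaling 2685 of 14290 genes were called lower and 2621 higher, to set beside the counts after that scaling. Presomitic and tailbud markers stood higher in the CHIR99021 groups, at 351 to 459 TPM in TLSMGC and 369 to 421 TPM in TLSMGCL, against 166 to 208 TPM in TLSMG. Pluripotency markers were lower in the CHIR99021 groups, at 39.2 to 74.1 TPM in TLSMGC and 66.1 to 87.8 TPM in TLSMGCL, against 119 to 155 TPM in TLSMG and 249 to 408 TPM in Gastruloid. In TLSMGC 7 of these 8 genes were lower than in TLSMG, and 6 after median-of-ratios scaling. Gut endoderm markers, 7 genes, summed to 84.2 to 105 TPM in Gastruloid, 72.6 to 106 TPM in TLSMG, 32.2 to 62.7 TPM in TLSMGC and 37.6 to 51.5 TPM in TLSMGCL, with 4 of 7 lower in TLSMGC than in TLSMG. Somite markers summed to 895 to 1059 TPM in TLSMG, 679 to 728 TPM in TLSMGC and 758 to 887 TPM in TLSMGCL, and 7 of 9 were lower and 1 higher in TLSMGC than in TLSMG. Endothelial markers (Kdr, Cdh5, Pecam1 and 4 others) summed to 238 to 293 TPM in TLSMG, 31.2 to 40.1 TPM in Gastruloid and 11.2 to 74.2 TPM in the CHIR99021 groups, and so were high in the group with the highest Hoxc10. Fibroblast markers, listed for feeder cells, summed to 8.47 to 32.6 TPM in all libraries, with S100a4 listed at 0 in all libraries of 120 h. From 96h to Gastruloid the mean of Col1a2 went from 1.59 to 14.2 TPM and that of Thy1 from 7.0 to 0.70 TPM. Against 96h, 2 of the 3 tested fibroblast genes were called higher and 1 lower in each group of 120 h. Over all genes tested 17.4% to 33.5% were called higher in these comparisons. The part of these cell types in the HoxC differences was not tested.

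The other Hox clusters hold paralogues, genes descended from the same ancestor, with the same number. Between 96h and Gastruloid the members of HoxC were compared with genes 4 to 10 of the other clusters on the log2 scale. Over all genes tested 20.8% were called higher and 20.5% lower. In HoxA, 3 of the 5 tested genes rose, with 3.13 for Hoxa7 and 3.19 for Hoxa9. Hoxa9 was at or near 0 in 96h, at most 0.0914 TPM, and had a mean of 8.62 TPM in Gastruloid. Hoxa4 and Hoxa5 had differences of -0.09 and 0.00. In HoxB, 3 of 6 rose, up to 2.65 for Hoxb9, and 2 fell, Hoxb4 by 0.91 and Hoxb5 by 1.54. In HoxD, Hoxd9 fell by 1.04 and the other 2 tested genes were not called. The paralogues of group 4 and group 5 therefore had values of different sign: Hoxc4 and Hoxc5 rose, Hoxb4 and Hoxb5 fell, and for Hoxa4 and Hoxa5 the intervals included 0. Hoxd4 was not called, with a mean of 31.3 TPM in 96h, where its libraries ranged from 12.2 to 43.0 TPM, and 15.1 TPM in Gastruloid (-0.82, adjusted p = 0.053). Hoxc5 and Hoxb5 had 95% intervals of 0.66 to 1.25 and of -1.82 to -1.26, although the difference between paralogues was not tested itself. In these comparisons, no called gene of any cluster changed sign under FPKM or median-of-ratios scaling.

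With CHIR99021, the paralogues were mostly lower, as in HoxC. In TLSMGC against TLSMG, 5 of 5 HoxA genes and 5 of 6 HoxB genes fell, among them Hoxb8 by 1.83 and Hoxb9 by 1.50. After median-of-ratios scaling 3 and 4 of them fell. Over all genes tested 30.5% were called lower, and 2685 of 14290 after that scaling. Hoxd9, a paralogue of Hoxc9, went the other way, at 8.69 ± 1.20 TPM in TLSMG and 18.5 ± 2.65 TPM in TLSMGC, a rise of 1.01 (SE 0.24, adjusted p = 0.0039). In TLSMGCL Hoxd9 was back at 5.85 ± 1.34 TPM. Between TLSMG and Gastruloid, where no tested HoxC member was called, Hoxd9 was higher by 2.05, Hoxd8 by 0.94, Hoxa5 by 0.72 and Hoxb4 by 0.67. In that comparison 3 of 5 HoxA, 2 of 6 HoxB and 2 of 3 HoxD genes were called higher. The others were not called. Over all genes tested 31.5% were called higher. After median-of-ratios scaling 2 genes of each of these clusters were called higher, and 2763 of all 14290 genes. The summed TPM of the HoxB genes, dominated by Hoxb9, was 446 ± 28.3 in Gastruloid and 174 ± 9.33 in TLSMGC.

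**Figure D4:**
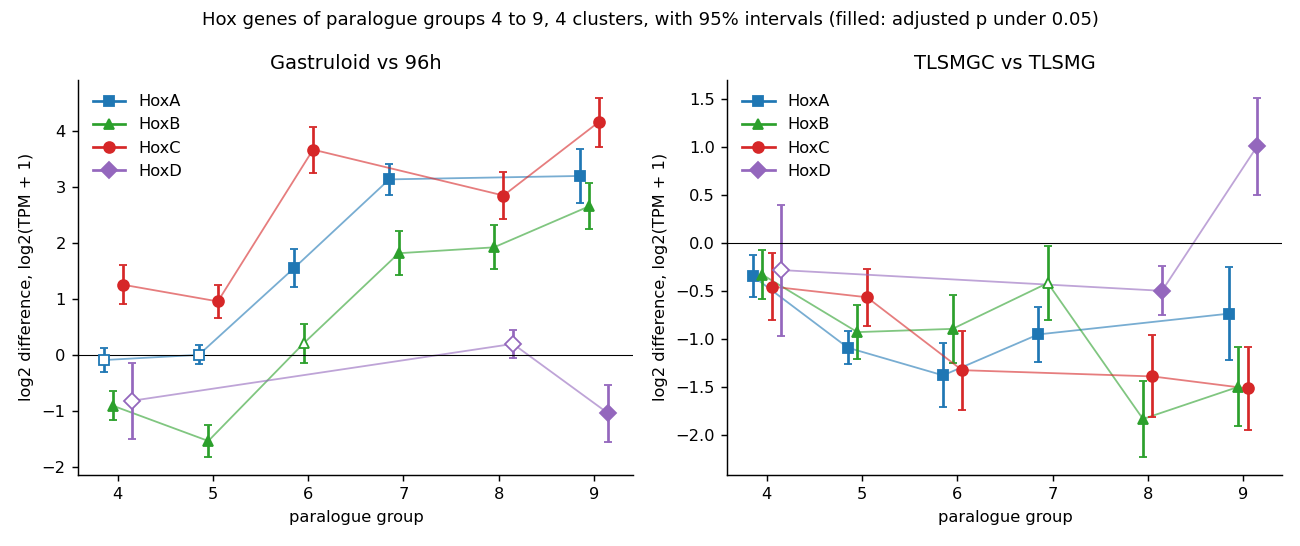
Log2 differences on the log2(TPM + 1) scale, with 95% intervals, of the tested genes of paralogue groups 4 to 9 in the 4 Hox clusters; left, Gastruloid minus 96h, and right, TLSMGC minus TLSMG. On the left HoxC lies above the other clusters at groups 4, 5, 6 and 8. At group 9 it does so on this scale only, which understates the change of low genes. The mean of Hoxa9 went from 0.0453 to 8.62 TPM and that of Hoxc9 from 0.767 to 30.6 TPM, a larger ratio for Hoxa9. On the right Hoxd9 is the only called gene above 0.

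HOX proteins bind DNA together with TALE homeodomain partners, and 9 genes of the Meis, Pbx and Pknox families were all tested. From 96h to Gastruloid 3 rose and 3 fell, with Pbx3 lower by 1.48, where 20.8% of all genes tested were called higher and 20.5% lower. From TLSMG to TLSMGC 7 of 9 fell and none rose, with Meis2 lower by 1.27, Meis3 by 1.23 and Meis1 by 1.23. Over all genes tested 30.5% were called lower there and 10.4% higher. After median-of-ratios scaling 4 fell and 1 rose, Pbx3 by 0.28 (adjusted p = 0.0089). Meis2 had 204 ± 1.64 TPM in TLSMG and 84.2 ± 6.79 TPM in TLSMGC.

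Factors known to act upstream of Hox genes include the CDX proteins, retinoic acid, WNT and FGF signals and GDF11, and 14 such genes were tested. Cdx1 fell by 5.42 from 96h to Gastruloid, from 323 ± 86.1 to 6.44 ± 1.10 TPM, and was higher by 5.12 in TLSMGC than in TLSMG, at 152 ± 33.8 TPM. Cdx4 rose by 1.57 from 96h to Gastruloid, and was not called in TLSMGC against TLSMG (-0.11). Aldh1a2, which makes retinoic acid, fell by 4.83 from 96h to Gastruloid and was higher by 1.85 in TLSMGC than in TLSMG. Rarb, a retinoic acid receptor and itself a target of retinoic acid, fell by 1.90 in TLSMGC against TLSMG, from 11.9 ± 1.35 to 2.47 ± 0.523 TPM. Gdf11, a signal of the trunk-to-tail change, rose by 0.96 from 96h to Gastruloid, was higher by 0.71 in TLSMG than in Gastruloid, and fell by 0.72 in TLSMGC. In all, 2 of 14 rose and 9 fell from 96h to Gastruloid, where 20.8% of all genes tested were called higher and 20.5% lower. From TLSMG to TLSMGC 3 rose and 7 fell, where 10.4% of all genes were called higher and 30.5% lower. After median-of-ratios scaling 4 of these 7 fell, where 2685 of all 14290 genes were called lower.

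The locus also holds the microRNA gene Mir196a-2, between Hoxc10 and Hoxc9, and Mir615 within the Hoxc5 gene. Their mature sequences in RefSeq (GRCm38.p6) are given with the seed, bases 2 to 8, in capitals, because miR-196 is known to act on Hoxc8.
mmu-miR-196a-5p: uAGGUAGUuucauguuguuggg
mmu-miR-615-5p: gGGGGUCCccggugcucggauc
The first lies at chr15:102973365-102973386 on the plus strand. A search of the 3′ untranslated regions of the 6 members for ACTACCT, the letters that pair with its seed, on the transcript strand found 2 matches in Hoxc8, at bases 135 and 892 of 966, and none in the other 5. The match letters are in capitals.
Hoxc8 first match: cactcacaactctaACTACCTg
Hoxc8 second match: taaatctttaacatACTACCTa
Of all 21045 such regions in the annotation 6.10% held the letters, and 3.95% of the 1341 within 10% of the length of that of Hoxc8. The letters GGACCCC, for miR-615-5p, had 1 match, in Hoxc6. A match is a description of letters and not a site. The Mir196a-2 gene was listed at 0 in all 15 libraries, which were made from polyadenylated RNA and do not measure mature microRNA. Among the other genes of the locus, Hoxc11, Hoxc12 and Hotair were listed at 0 in all 15 libraries, and Hoxc13 reached at most 0.167 TPM.

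Over the 15 libraries the members varied together, as they share the same libraries and groups. Pearson's r on log2(TPM + 1) ranged from 0.67 (Hoxc4 with Hoxc10) to 0.99 (Hoxc6 with Hoxc8 and with Hoxc9). Within the 12 libraries of 120 h it ranged from 0.37 (Hoxc9 with Hoxc10) to 0.98 (Hoxc6 with Hoxc8). Hoxc10 thus had the lowest correlations with the others. Its means outside TLSMG were 0 to 0.689 TPM, where this scale compresses differences and library error weighs more. Its group means also differed from those of the others. The ratio of TLSMG to Gastruloid was 4.60 for Hoxc10, and from 0.891 (Hoxc9) to 1.21 (Hoxc5) for the other 5 members. The part of each in the low r was not tested. Among 10880 genes with a symbol and a mean above 5 TPM, those nearest to the mean profile of the members were Eva1b (r = 0.99 over 15 libraries), Trim2 (0.98) and Vdac3 (0.97). Eva1b had means of 6.84 TPM in 96h, 26.9 TPM in Gastruloid, 28.7 TPM in TLSMG, 16.0 TPM in TLSMGC and 13.0 TPM in TLSMGCL. The gene nearest to Hoxc9 was Nr2f6 (r = 0.98), an orphan nuclear receptor, and to Hoxc8 Sbk1 (r = 0.99). For Hoxc10 the nearest were Mirg, Exoc6 and Stab1 (r = 0.95, 0.94 and 0.94), of which Stab1 had a mean of 23.5 TPM in TLSMG, 4.46 TPM in TLSMGC and 2.49 TPM in Gastruloid.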

How the data were processed

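Poly(A) RNA of 15 pooled samples, 5 groups of 3, was sequenced as stranded libraries with paired reads of 75 bases, per the labels' protocols. Per the submitters' processing notes, cutadapt 2.4, STAR 2.7.3a, StringTie 2.0 and the mm10 build were used; the annotation release is not given in the sources used here. The authors' TPM and FPKM values, and the deposited coverage (mean read depth per gene), came from 1 StringTie gene abundance table per library, per the file headers. Rows of one gene ID were summed. No read counts were used, so no detection floor was computed, and a listed 0 can be a failed estimate. Relative depth, coverage divided by FPKM in genes with 1 transcript, differed up to 2.19-fold between libraries, and lower depth gives larger error.

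The tests used limma 3.58.1 (R 4.3.3) and log2(TPM + 1) values, a scale that understates changes of low genes. Genes with a mean of at least 1 TPM over the 15 libraries (14290) entered 1 model of all 5 groups, and the prior variance followed the mean level. From it came 8 comparisons and an F test among the 4 groups of 120 h, two-sided and adjusted by Benjamini-Hochberg over all genes in each. The code was tested on simulated data. The coverage-based level is the deposited coverage scaled per library to TPM, an alternative chosen after seeing the data. Alternatives were other pseudocounts (0.1 and 0.5), no filter, a minimum mean of 5 TPM, FPKM, median-of-ratios scaling, fits of 2 groups, a replicate block and leaving out each library. Homeobox and 3′ untranslated sequences were read from the GENCODE M21 reference; the homeobox bases of 1 member are not reported here.

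The members and the gene lists were chosen with earlier results of these data known. Every member is named in each comparison, and from the paralogue, cofactor and regulator lists the called gene with the largest change in each direction; further genes of these lists are named after their values were seen. The 3 genes most correlated with each member and the 5 with their mean profile were sought among genes of at least 5 TPM outside the Hox loci. The 5 single-cell samples were not analysed here. Python 3.11.15 with numpy 2.4.6, pandas 2.3.3 and matplotlib 3.10.9 was used.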

Additional observations from a re-analysis of the deposited data

How the results depend on the processing

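The counts of HoxC genes called were within 1.5 times of the values above in 139 of 140 alternative values. The exception was TLSMG against Gastruloid without the filter on low genes, where 1 gene was called, Hoxc10, which the filter leaves out. Of 592 values for single members under the alternatives, 581 stayed on the same side of the threshold, 10 lost the call and 1 gained it. A change of direction was counted only where a call was involved, and 0 values had one. Changes of sign between uncalled values, such as those near 0, were not counted. The calls lost were all those of Hoxc4. They were lost in TLSMGC against TLSMG without the filter (adjusted p = 0.17), with FPKM, with median-of-ratios scaling and without any 1 of 4 libraries, and in TLSMGCL against 96h without the filter (adjusted p = 0.083) or without either of 2 libraries. The call gained was Hoxc5 in TLSMGCL against 96h on the coverage-based level (0.29, adjusted p = 0.036). The cause was not tested. On that level Hoxc6 was at 2.39 in TLSMG and 1.08 in TLSMGCL against 96h, and Hoxc9 at 1.37 in TLSMGCL. Median-of-ratios scaling moved the median of all genes from 0.14 to -0.01 in TLSMG against 96h and from -0.16 to -0.01 in TLSMGC against TLSMG. Over all genes, TLSMGCL against TLSMGC called 169, but 42 when only those groups were fitted and 89 without the filter.

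The labels number the replicates 1 to 3 in every group. Deviations of same-numbered libraries from their group means had correlations from -0.18 to 0.10 over 24 pairs, and 1 of 15 libraries was closest to its own number, so the numbers were not taken as pairs. A fit with the replicate block changed no call of a member, with 5 members higher in Gastruloid than in 96h and 5 lower in TLSMGC than in TLSMG. Of all 14290 genes in that fit, 2870 were called higher in the first comparison and 4161 lower in the second. The same fit called 122 genes between TLSMGCL and TLSMGC.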

Other observations

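Within the TLSMG group the library with the highest Hoxc10 (2.99 TPM, the first) had the lowest Hoxc4 (26.1 TPM), Hoxc6 (44.0 TPM), Hoxc8 (59.5 TPM) and Hoxc9 (24.9 TPM) of the 3, and the highest Hoxc5 (7.05 TPM). Hoxc5 and Hoxc10 are the pair with shared exon bases. Mir615, which lies in the Hoxc5 gene, was above 0 in 10 of 15 libraries, with at most 1.35 TPM.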
